A study of Mus musculus with 9 samples.

Results

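The histone cluster genes encode the linker histone H1 and the core histones H2A, H2B, H3 and H4, and lie side by side in groups in the mouse genome. They were taken as every gene of the deposited table whose symbol starts with Hist1h, Hist2h, Hist3h or Hist4h, which gave 67 of the 23936 genes with a symbol. The series holds 9 RNA sequencing libraries of OT-I CD8 T cells, mouse T cells with a transgenic receptor for a peptide of ovalbumin. The 3 MLN-primed libraries came from the MLN and their titles add "oral", the 3 spleen-primed libraries came from the spleen and their titles add "iv", and the 3 naive libraries came from the spleen. All 9 libraries carry the OT-I receptor, and the sources used here do not give strain, age, the sort or gate, the time after priming or the number of animals per library. Organ and title word change together between the primed groups, so their effects cannot be told apart. Organ and priming likewise change together between MLN-primed and naive cells and cannot be told apart there. Whether each library is from its own animal is not stated either, so the p-values speak of the spread among these libraries, part or all of which may be technical.

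Histone cluster genes are switched on mainly in S phase, when newly copied DNA has to be packed into nucleosomes. Their mRNA usually carries no poly(A) tail and ends shortly after a stem-loop, which is bound by the stem-loop binding protein SLBP during processing and translation. In human cells some of these genes also give polyadenylated mRNA, among other settings when cells leave the cell cycle. The libraries were made with a kit that selects poly(A) RNA, per the labels' protocols, so the values describe the histone RNA that came through this selection, and the share of each gene's RNA that carries a tail was not measured.

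Of the 67 genes, 53 lie in the large cluster on chromosome 13, 10 on chromosome 3, 3 on chromosome 11 and 1 on chromosome 6. They comprise 6 genes for H1, 18 for H2A, 18 for H2B, 12 for H3 and 13 for H4. The H2B count includes Hist3h2bb-ps, which is annotated as a transcribed pseudogene. Coordinates are those of RefSeq on GRCm38.p6, in which 67 of 67 genes were found by gene ID. The stem-loop was searched in the GENCODE M21 transcripts and found in 46 of the 67 genes, against 0.242% of all 55341 genes. The sites below are shown because they mark the processed 3′ end, with 5 flanking bases on each side and the 16 bases of the stem-loop in capitals, for members that the results turn on.
Hist1h4i: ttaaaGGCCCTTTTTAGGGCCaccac
Hist1h4c: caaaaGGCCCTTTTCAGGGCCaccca
Hist1h3c: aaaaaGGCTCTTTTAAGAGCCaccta
Hist1h3g: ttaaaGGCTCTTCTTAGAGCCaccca
Hist1h2bj: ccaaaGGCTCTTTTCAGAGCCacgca
Hist3h2ba: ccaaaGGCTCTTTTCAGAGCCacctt
Hist2h2aa1: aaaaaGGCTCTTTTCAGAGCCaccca
Hist3h2a: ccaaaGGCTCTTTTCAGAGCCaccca

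The commonest form, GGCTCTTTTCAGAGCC, was found in 26 members of the H1, H2A, H2B and H3 classes and in no H4 gene. The form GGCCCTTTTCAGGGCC was found in 7 members, all of them H4 genes. Hist2h2aa1 and Hist3h2a, which stood highest in naive cells, hold the same stem-loop as Hist1h2bj, which was higher in primed than in naive cells. The models differ in how far they run on past it. In 22 members the annotated transcript ends within 60 bases after the stem-loop, as in Hist1h2bj with 23, Hist2h2aa1 with 35 and Hist1h3g with 47 bases. In 23 members it runs over 100 bases further, as in Hist1h4i with 330, Hist1h4c with 454 and Hist3h2a with 1643 bases. Hist2h2be and Hist1h2bc have no match in their models.

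Promoters, from RefSeq on GRCm38.p6, are windows of 300 bases around the annotated start. The 4 below are shown because Hist1h4i was the most abundant member in primed cells, Hist1h2bj shares 252 of its 300 bases with the Hist1h2ag promoter on the other strand, and Hist2h2aa1 and Hist3h2a were the most abundant members in naive cells. Capitals mark, on either strand, the TATA box letters TATAAA, the NF-Y letters CCAAT, the octamer ATTTGCAT and the H4 element core GGTCC, none of which contains another.
Hist1h4i, chr13:22041313-22041612, minus strand: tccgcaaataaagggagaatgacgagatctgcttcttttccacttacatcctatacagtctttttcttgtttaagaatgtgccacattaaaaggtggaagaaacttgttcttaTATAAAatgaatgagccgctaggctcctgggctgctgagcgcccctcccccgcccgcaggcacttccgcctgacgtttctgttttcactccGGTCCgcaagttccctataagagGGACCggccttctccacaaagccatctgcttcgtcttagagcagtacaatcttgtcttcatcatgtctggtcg
Hist1h2bj, chr13:22042948-22043247, plus strand: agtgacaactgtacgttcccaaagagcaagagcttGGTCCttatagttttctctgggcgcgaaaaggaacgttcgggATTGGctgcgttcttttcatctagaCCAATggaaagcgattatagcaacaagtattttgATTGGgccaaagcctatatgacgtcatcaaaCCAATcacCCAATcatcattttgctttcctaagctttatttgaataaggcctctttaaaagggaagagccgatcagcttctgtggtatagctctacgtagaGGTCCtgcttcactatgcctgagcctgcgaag
Hist2h2aa1, chr3:96245247-96245546, plus strand: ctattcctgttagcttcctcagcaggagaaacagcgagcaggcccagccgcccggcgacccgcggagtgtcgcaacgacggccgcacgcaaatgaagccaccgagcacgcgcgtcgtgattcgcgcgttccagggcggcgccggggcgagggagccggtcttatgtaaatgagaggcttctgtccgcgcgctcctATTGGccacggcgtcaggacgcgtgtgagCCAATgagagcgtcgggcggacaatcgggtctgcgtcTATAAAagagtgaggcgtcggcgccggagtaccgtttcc
Hist3h2a, chr11:58954435-58954734, plus strand: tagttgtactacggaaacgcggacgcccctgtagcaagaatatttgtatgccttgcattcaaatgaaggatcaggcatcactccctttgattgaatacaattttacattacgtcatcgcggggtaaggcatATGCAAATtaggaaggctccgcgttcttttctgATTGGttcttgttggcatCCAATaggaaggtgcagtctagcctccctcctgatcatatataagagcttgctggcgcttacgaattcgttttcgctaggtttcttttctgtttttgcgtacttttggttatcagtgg

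CCAAT, the letters recognised by NF-Y, stood in 52 of the 61 member promoters on hand, against 37.4% of all 32851 promoter windows. It was in all 6 H1, 18 H2A, 15 H2B and 10 H3 windows, and in 3 of 12 H4 windows. GGTCC, the core of the H4 element bound by the factor HiNF-P, was in 11 of 12 H4 windows and in 45.5% of all windows. The octamer ATTTGCAT, bound by Oct-1, was in 7 of 18 H2A and 6 of 15 H2B windows and in no H1, H3 or H4 window, against 1.74% of all windows. TATAAA was in 35 of 61 member windows and in 13.6% of all. In 9 cases an H2A and an H2B gene face away from each other and share 220 to 279 bases of promoter. A match describes these letters in this window and is not evidence of binding.

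Values are FPKM, fragment numbers divided by transcript length and library size, as deposited by the authors, so levels of different genes are compared per length. FPKM do not keep read numbers, and depth is unknown. Libraries totalled 612887 to 720165 FPKM, and each had 9469 to 9667 genes at 1 FPKM or more. Summed FPKM of 6 CD8 T cell markers were 1545 to 1612 in MLN-primed, 2339 to 2442 in spleen-primed and 3274 to 3602 in naive libraries. Summed B cell markers were 11.2 to 14.5, 6.48 to 8.32 and 11.1 to 15 FPKM in MLN-primed, spleen-primed and naive libraries. Red cell markers ranged from 0.346 to 97.4 in MLN-primed, from 4.70 to 51.9 in spleen-primed and from 14.2 to 87.8 in naive libraries. Myeloid markers summed to 16 to 19.5, 47.7 to 51.0 and 8.76 to 24.3 FPKM in the same order. Cd79b made up most of the B cell sum. Itgam and Cd68 made up most of the myeloid sum in primed libraries, while the macrophage receptor Csf1r was at most 0.551 FPKM in any library. Of the 6 myeloid markers with values, 4 were tested and 2 rose and 2 fell in each primed group against naive cells. The part of these markers in the results was not tested, and in such bulk RNA fewer cells of a type and less RNA per cell cannot be told apart.

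Together the histone cluster genes had more RNA in both primed groups than in naive cells. Their FPKM summed to 184, 150 and 158 in the MLN-primed libraries and to 206, 220 and 162 in the spleen-primed libraries, against 41.4, 59.0 and 57.8 in the naive libraries. Every primed library lay above every naive library, and the ranges of both primed groups overlapped. Without Hist1h4i, the most abundant member, the sums averaged 105 ± 11.2 in MLN-primed, 136 ± 23.1 in spleen-primed and 48.1 ± 9.18 FPKM in naive cells (SD, n = 3 each, as for all FPKM with an error).

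**Figure D1:**
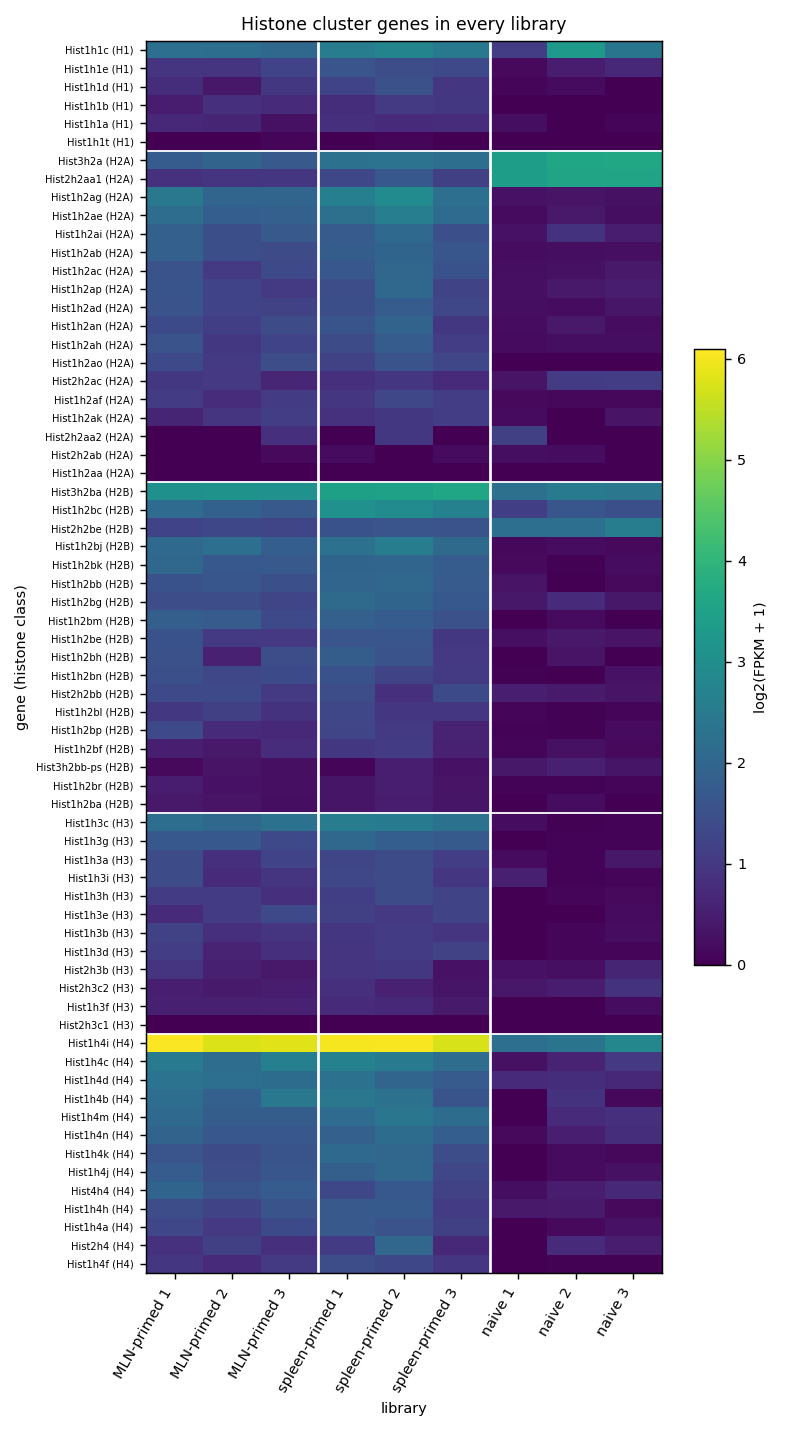
Each line is 1 of the 67 histone cluster genes, grouped by histone class, each column 1 library, and colour gives log2(FPKM + 1). Hist1h4i is brightest in the 6 primed libraries, while Hist3h2a and Hist2h2aa1 are bright in the 3 naive libraries and dark in the primed ones.

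The makeup of the pool differed as well. Hist1h4i supplied 35% to 36.1% of the members' FPKM in MLN-primed libraries and 29.5% to 32% in spleen-primed libraries, against 6.94% to 10.5% in naive libraries. Hist2h2aa1, Hist3h2a and Hist2h2be together supplied 2.52% to 3.50% in MLN-primed and 3.53% to 4.21% in spleen-primed libraries, against 43.8% to 55.8% in naive libraries. By class, H4 summed to 86.7 ± 9.25 FPKM in MLN-primed, 91.3 ± 14.8 in spleen-primed and 8.44 ± 2.97 in naive cells. H3 summed to 13.2 ± 1.76, 16.4 ± 1.99 and 1.58 ± 0.843 FPKM and H2B to 31.9 ± 3.35, 43.9 ± 5.09 and 12.4 ± 1.62 FPKM in the same order. H2A sums of the MLN-primed and naive libraries overlapped, at 25.9 ± 3.96 FPKM in MLN-primed, 34.7 ± 8.80 in spleen-primed and 25.1 ± 1.96 in naive cells. H1 summed to 6.30 ± 0.120, 9.90 ± 1.25 and 5.22 ± 3.89 FPKM, and its naive libraries spread widely.

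Differences were tested with limma on log2(FPKM + 1) with Benjamini-Hochberg adjustment over all genes tested, at an adjusted p of 0.05. This scale understates the change of low genes. A fit over all 23936 genes keeps every member. In it, 51 of 67 histone cluster genes were higher and 3 lower in MLN-primed than in naive cells, where 21.8% of all genes were higher and 16.3% lower. In spleen-primed against naive cells 53 of 67 were higher and 3 lower, where 19.7% of all genes were higher and 16% lower. Both comparisons share the naive libraries. Members whose libraries did not overlap between the groups were 54 higher and 4 lower in MLN-primed against naive cells, where 24.1% and 19.5% of all genes did so. In spleen-primed against naive cells they were 53 higher and 3 lower, where 22.5% and 19.1% of all genes did so.

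By class, 4 of 6 H1, 12 of 18 H2A, 14 of 18 H2B, 9 of 12 H3 and 12 of 13 H4 genes rose in MLN-primed against naive cells. In spleen-primed against naive cells 4 of 6 H1, 12 of 18 H2A, 16 of 18 H2B, 9 of 12 H3 and 12 of 13 H4 genes rose. The 3 genes that fell in each comparison were Hist2h2aa1, Hist3h2a and Hist2h2be. By position, 48 of 53 genes of the chromosome 13 cluster rose in MLN-primed and 50 of 53 in spleen-primed against naive cells, and none fell. In the chromosome 3 cluster 1 of 10 genes rose and 2 fell, in each comparison. On chromosome 11 Hist3h2ba rose and its neighbour Hist3h2a fell, in each comparison.

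Single genes are given below from the fit of the 10185 genes that reached 1 FPKM in 3 or more libraries, which holds 49 of the 67 members. A gene that is high in 1 group alone can pass this filter, so the counts, medians and single-gene p-values of this fit only describe. Without the filter p-values were larger, as for Hist1h3g (limma adjusted p = 5.71e-05 in MLN-primed and 3.02e-05 in spleen-primed against naive cells). For Hist1h4b they were 0.00347 and 0.00465 in limma. Only Hist1h2bc in MLN-primed and Hist2h4 in spleen-primed against naive cells lost their calls there. In the filtered fit, 43 members were higher and 3 lower in MLN-primed against naive cells, where 45.5% of all genes were higher and 33.2% lower. In spleen-primed against naive cells 44 were higher and 3 lower, where 43.1% and 32.7% of all genes were. The median log2 difference of these members was 1.06 in MLN-primed against naive cells, where the median of all genes tested was 0.15. It was 1.23 in spleen-primed against naive cells, where that of all genes was 0.10. Over all 67 members, in the fit without a filter, the medians were 0.88 in MLN-primed and 1.12 in spleen-primed against naive cells, where those of all genes were 0. Median-of-ratios scaling moved the median of all genes to -0.01 in both comparisons, and that of the members to 1.0 in MLN-primed and 1.21 in spleen-primed against naive cells. Removing a trend with transcript length from each library, a step chosen after the data were examined, lowered the members' medians to 0.56 and 0.72. It left 35 and 41 members higher in MLN-primed and spleen-primed against naive cells, where 3878 and 3628 of 10185 genes were higher.

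**Figure D2:**
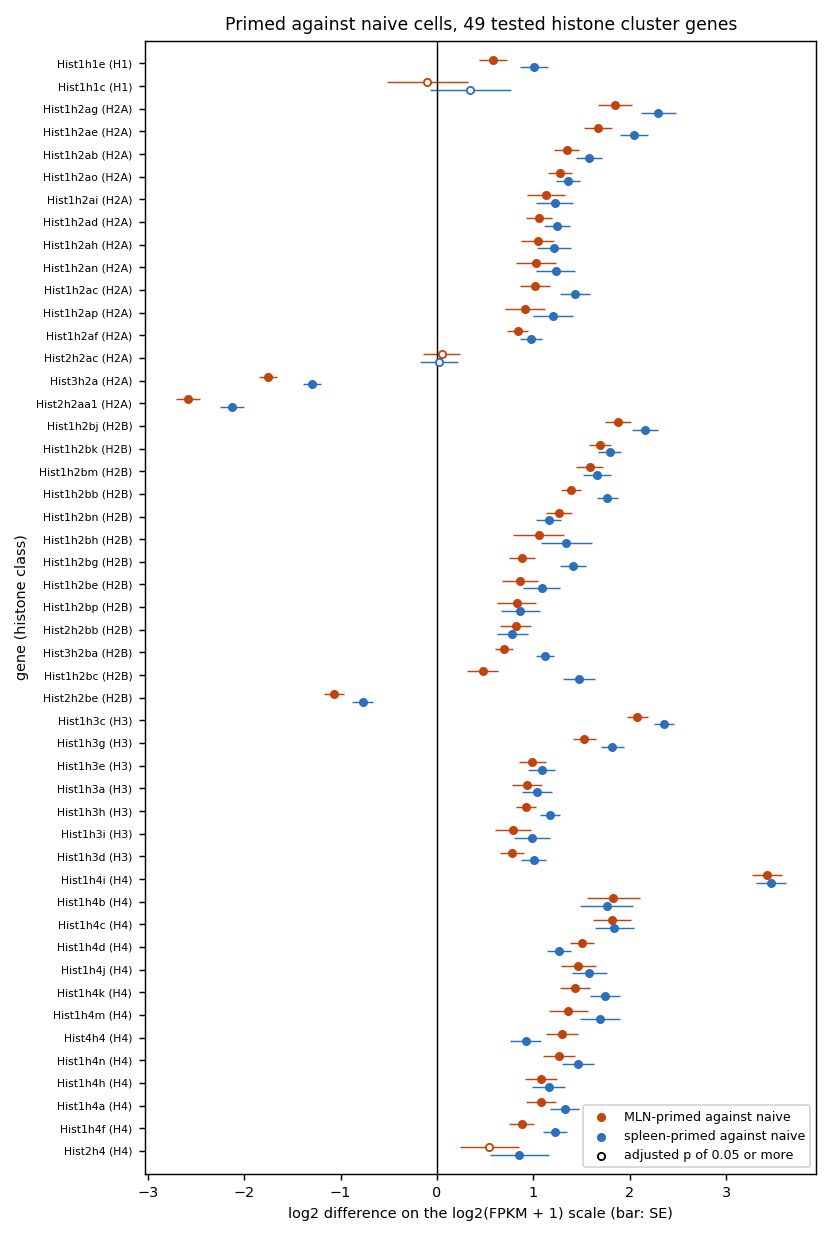
For 49 tested histone cluster genes, points give the log2 difference of MLN-primed (orange) and spleen-primed (blue) against naive cells on the log2(FPKM + 1) scale, with the standard error as a bar and open points at an adjusted p of 0.05 or more. Most genes lie to the right of 0 in both comparisons, Hist1h4i farthest, and Hist2h2aa1, Hist3h2a and Hist2h2be lie to the left.

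Among the H4 genes, which encode the core histone that pairs with H3 in the nucleosome, Hist1h4i stood far above the rest. Hist1h4i (gene ID 319158, chr13:22040960-22041362, minus strand) had 66.0, 54.2 and 55.4 FPKM in MLN-primed and 63.7, 65.0 and 52.0 FPKM in spleen-primed libraries, against 3.67, 4.10 and 6.07 FPKM in naive libraries. All 6 primed libraries were over the highest naive library, and the primed groups overlapped. The log2 difference was 3.42 ± 0.16 (SE) in MLN-primed (limma adjusted p = 2.01e-08) and 3.46 ± 0.16 in spleen-primed against naive cells (limma adjusted p = 2.30e-08). Its stem-loop, printed above, is followed by 330 annotated bases, and 28.9% of its 50-base windows also occur in another histone cluster gene.

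The other H4 genes had smaller log2 differences, taken with 1 added to FPKM, but not all had smaller ratios of plain FPKM. Hist1h4f averaged 0.0167 ± 0.0145 FPKM in naive and 0.881 ± 0.215 in MLN-primed cells, a larger ratio than that of Hist1h4i. Hist1h4d, at 0.668 ± 0.0621 and 3.73 ± 0.251 FPKM in the same order, had a smaller one. Ratios over naive levels as low as that of Hist1h4f are uncertain. Hist1h4c (gene ID 319155, chr13:23698084-23698458, minus strand) had 4.74, 3.54 and 5.17 FPKM in MLN-primed and 5.39, 4.83 and 3.56 FPKM in spleen-primed libraries, against 0.217, 0.494 and 1.03 FPKM in naive libraries. Hist1h4b (gene ID 326620, chr13:23756937-23757386, plus strand) had 3.57, 2.68 and 4.42 FPKM in MLN-primed and 4.36, 3.88 and 2.02 FPKM in spleen-primed libraries, against 0, 0.866 and 0.0883 FPKM in naive libraries. In both genes every primed library was above every naive one, and the primed groups overlapped. The log2 difference of Hist1h4c was 1.82 ± 0.20 in MLN-primed and 1.84 ± 0.20 in spleen-primed against naive cells (limma adjusted p = 1.42e-05 and 1.52e-05). For Hist1h4b it was 1.83 ± 0.28 and 1.76 ± 0.28 (limma adjusted p = 1.41e-04 and 2.12e-04). Hist2h4, the H4 gene of the chromosome 3 cluster, had a log2 difference of 0.55 ± 0.30 in MLN-primed (limma adjusted p = 0.123) and 0.86 ± 0.30 in spleen-primed against naive cells (limma adjusted p = 0.0258). Its second value no longer passed in the fit without a filter (limma adjusted p = 0.122).

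Among the H3 genes, for the partner of H4, the 2 most abundant were near 0 in naive cells. Hist1h3c (gene ID 319148, chr13:23745042-23745521, minus strand) had 3.57, 3.16 and 3.84 FPKM in MLN-primed and 5.01, 4.63 and 3.82 FPKM in spleen-primed libraries, against 0.148, 0.0200 and 0.0414 FPKM in naive libraries. Hist1h3g (gene ID 97908, chr13:23535418-23535909, plus strand) had 2.22, 2.20 and 1.54 FPKM in MLN-primed and 3.11, 2.51 and 2.32 FPKM in spleen-primed libraries, against 0, 0.0425 and 0.0430 FPKM in naive libraries. No naive library of either gene reached 1 FPKM, and no primed library was below it. The log2 difference of Hist1h3c was 2.08 ± 0.11 in MLN-primed and 2.35 ± 0.11 in spleen-primed against naive cells (limma adjusted p = 4.43e-08 and 2.30e-08). That of Hist1h3g was 1.53 ± 0.12 and 1.82 ± 0.12 (limma adjusted p = 8.38e-07 and 2.93e-07). The 3 H3 genes of the 12 that did not rise in the fit without a filter, Hist2h3b, Hist2h3c1 and Hist2h3c2, lie on chromosome 3. Hist2h3c2 had 0.430, 0.361 and 0.391 FPKM in MLN-primed and 0.801, 0.474 and 0.273 FPKM in spleen-primed libraries, against 0.311, 0.409 and 0.872 FPKM in naive libraries, and its groups overlapped.

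H2A and H2B form the dimers of the nucleosome core, and their genes include both rises and all falls. Hist1h2ag (gene ID 319167, chr13:22042478-22042949, minus strand), an H2A gene, had 4.48, 2.98 and 3.0 FPKM in MLN-primed and 5.18, 6.67 and 3.67 FPKM in spleen-primed libraries, against 0.226, 0.255 and 0.212 FPKM in naive libraries. Its H2B neighbour Hist1h2bj (gene ID 319183, chr13:22043198-22043658, plus strand), which shares the promoter printed above, had 3.21, 3.70 and 2.53 FPKM in MLN-primed and 3.85, 4.99 and 3.30 FPKM in spleen-primed libraries, against 0.0877, 0.155 and 0.118 FPKM in naive libraries. Both genes were higher in every primed library than in every naive one, with overlapping primed groups. The log2 difference of Hist1h2ag was 1.85 ± 0.18 in MLN-primed and 2.30 ± 0.18 in spleen-primed against naive cells (limma adjusted p = 5.56e-06 and 1.36e-06). That of Hist1h2bj was 1.88 ± 0.14 and 2.16 ± 0.14 (limma adjusted p = 6.71e-07 and 3.02e-07). Of the 50-base windows of Hist1h2ag 78.9% and of Hist1h2bj 59.4% occur in another histone cluster gene, so how reads were divided among these relatives is uncertain.

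Hist1h2ae (gene ID 319166, chr13:23570663-23571220, minus strand), another H2A gene, had 3.51, 2.55 and 2.64 FPKM in MLN-primed and 3.73, 5.11 and 3.37 FPKM in spleen-primed libraries, against 0.139, 0.342 and 0.171 FPKM in naive libraries. The log2 difference was 1.67 ± 0.14 in MLN-primed and 2.05 ± 0.14 in spleen-primed against naive cells (limma adjusted p = 2.18e-06 and 6.12e-07). Its naive libraries did not overlap with the primed ones. It shares its promoter with the H2B gene Hist1h2bg, described below. Hist2h2ac was the only H2A gene of the filtered fit that passed in neither comparison, at a log2 difference of 0.05 ± 0.19 in MLN-primed and 0.02 ± 0.19 in spleen-primed against naive cells (limma adjusted p = 0.829 and 0.932).

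**Figure D3:**
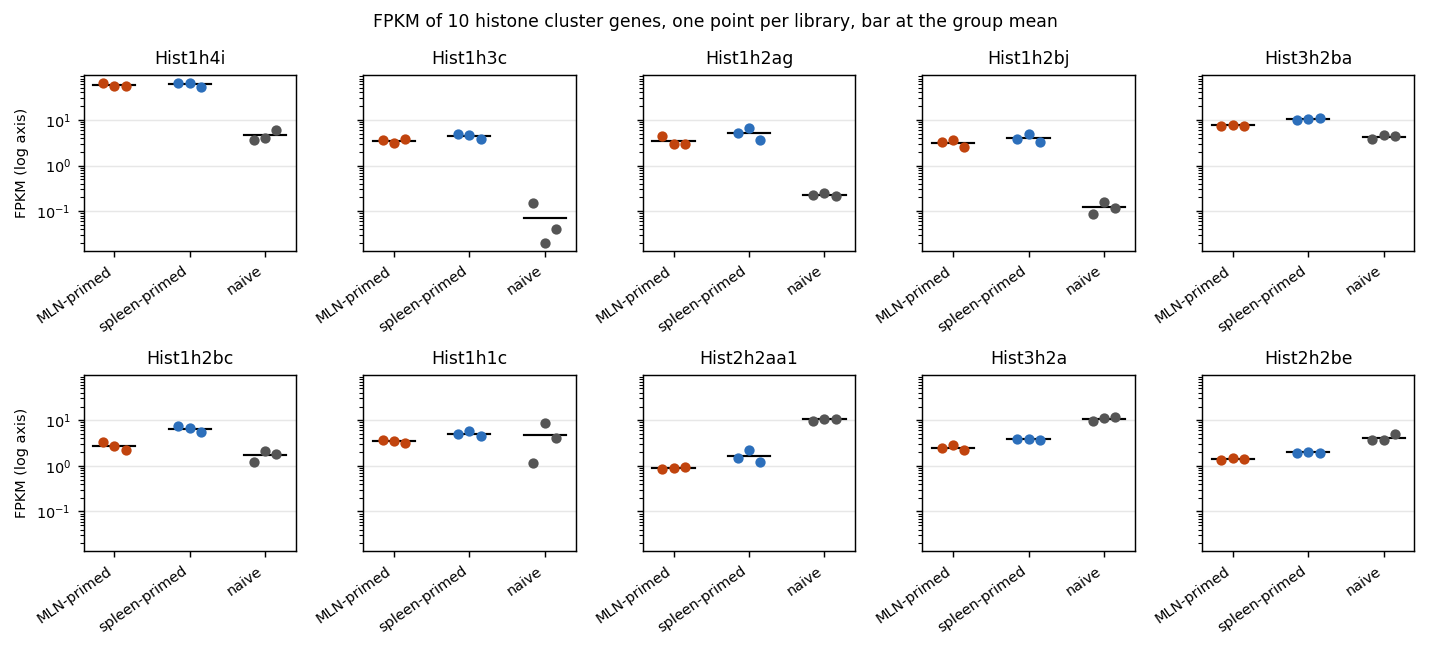
FPKM of 10 histone cluster genes on a log axis, 1 point per library and a bar at the group mean, for MLN-primed, spleen-primed and naive cells. Hist1h4i, Hist1h3c, Hist1h2ag and Hist1h2bj are higher in all primed libraries than in any naive one, Hist2h2aa1, Hist3h2a and Hist2h2be are lower in all of them, and the naive libraries of Hist1h1c spread from 1.15 to 8.72 FPKM.

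The 3 genes that fell in primed cells were the H2A genes Hist2h2aa1 and Hist3h2a and the H2B gene Hist2h2be. Hist2h2aa1 (gene ID 15267, chr3:96245497-96246052, plus strand) had 0.841, 0.911 and 0.964 FPKM in MLN-primed and 1.48, 2.22 and 1.24 FPKM in spleen-primed libraries, against 9.68, 10.9 and 10.7 FPKM in naive libraries. Hist3h2a (gene ID 319162, chr11:58954685-58955192, plus strand) had 2.44, 2.84 and 2.28 FPKM in MLN-primed and 3.87, 3.97 and 3.64 FPKM in spleen-primed libraries, against 9.73, 11.3 and 11.6 FPKM in naive libraries. Hist2h2be (gene ID 319190, chr3:96221072-96223738, plus strand) had 1.35, 1.5 and 1.42 FPKM in MLN-primed and 1.92, 2.06 and 1.96 FPKM in spleen-primed libraries, against 3.68, 3.66 and 5.02 FPKM in naive libraries. In all 3 genes the MLN-primed libraries were lowest, the spleen-primed ones next and the naive ones highest, with no overlap between any groups. The log2 differences of Hist2h2aa1 were -2.58 ± 0.13 in MLN-primed and -2.13 ± 0.13 in spleen-primed against naive cells (limma adjusted p = 3.55e-08 and 1.92e-07). For Hist3h2a they were -1.75 ± 0.10 and -1.30 ± 0.10 (limma adjusted p = 7.84e-08 and 9.52e-07), and for Hist2h2be -1.07 ± 0.11 and -0.77 ± 0.11 (limma adjusted p = 7.14e-06 and 9.43e-05).

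Hist2h2aa1 has a near-identical copy, Hist2h2aa2, and 89.2% of its own 50-base windows occur in another histone cluster gene. Hist2h2aa2 was listed at 0.762 FPKM in MLN-primed 3, 0.976 in spleen-primed 2 and 1.22 in naive 1, and below 0.001 in the other libraries, so how reads were divided between the copies is uncertain. The other genes are less exposed to this, since Hist3h2a shares 2% of its windows and Hist2h2be none. Hist3h2a lies within the span of Trim17 (chr11:58954671-58973075), which was listed at 0 to 0.0258 FPKM in MLN-primed, 0 to 0.0238 in spleen-primed and 0.0517 to 0.175 in naive libraries.

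The remaining H2B genes include the most abundant one in all 6 primed libraries, Hist3h2ba. Hist3h2ba (gene ID 78303, chr11:58948911-58949372, plus strand) had 7.31, 7.82 and 7.53 FPKM in MLN-primed and 10.1, 10.2 and 11.3 FPKM in spleen-primed libraries, against 3.77, 4.77 and 4.38 FPKM in naive libraries. The 3 groups did not overlap, with spleen-primed cells highest. The log2 difference was 0.69 ± 0.09 in MLN-primed and 1.12 ± 0.09 in spleen-primed against naive cells (limma adjusted p = 5.69e-05 and 1.91e-06). With the length trend removed the first was 0.17 and did not pass (limma adjusted p = 0.189). The gene lies within the span of a long noncoding RNA gene, Gm51864 (chr11:58942768-58950755), not analysed here.

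Hist1h2bc (gene ID 68024, chr13:23684199-23692480, plus strand), an H2B gene, had 3.37, 2.70 and 2.23 FPKM in MLN-primed and 7.45, 6.66 and 5.45 FPKM in spleen-primed libraries, against 1.21, 2.12 and 1.82 FPKM in naive libraries. All spleen-primed libraries were above all others, while the lowest MLN-primed library was just above the highest naive one. The log2 difference was 0.48 ± 0.16 in MLN-primed and 1.47 ± 0.16 in spleen-primed against naive cells (limma adjusted p = 0.0205 and 1.62e-05). The first value did not pass without a filter, with median-of-ratios scaling, or without naive 1 or MLN-primed 1, where it was 0.33 to 0.48 (limma adjusted p = 0.0691 to 0.0829). It changed sign, to -0.04, with the length trend removed (limma adjusted p = 0.774).

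The linker histone genes encode H1, which binds the DNA between nucleosomes. Hist1h1c (gene ID 50708, chr13:23738807-23739531, plus strand) had 3.66, 3.58 and 3.13 FPKM in MLN-primed and 4.97, 5.78 and 4.49 FPKM in spleen-primed libraries, against 1.15, 8.72 and 4.16 FPKM in naive libraries. The naive libraries spread over both primed groups, and neither comparison passed (limma adjusted p = 0.838 in MLN-primed and 0.466 in spleen-primed against naive cells). Without naive 2 the log2 difference in spleen-primed cells was 0.86 (limma adjusted p = 0.0312), and without naive 1 that in MLN-primed cells was -0.67 (limma adjusted p = 0.0274). Hist1h1e (gene ID 50709, chr13:23621777-23622558, minus strand) had 0.929, 0.916 and 1.35 FPKM in MLN-primed and 2.06, 1.71 and 1.52 FPKM in spleen-primed libraries, against 0.117, 0.413 and 0.632 FPKM in naive libraries. The 3 groups of Hist1h1e did not overlap. Its log2 difference was 0.58 ± 0.15 in MLN-primed and 1.01 ± 0.15 in spleen-primed against naive cells (limma adjusted p = 0.00418 and 1.28e-04). With the length trend removed the first was 0.17 (limma adjusted p = 0.281).

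The other 4 linker genes were not in the filtered fit. Hist1h1b was listed at 0 in all 3 naive libraries, at 0.412 to 0.806 FPKM in MLN-primed and at 0.735 to 1.05 FPKM in spleen-primed libraries. Hist1h1d reached 0.319 to 0.999 FPKM in MLN-primed and 0.941 to 1.87 FPKM in spleen-primed libraries, against at most 0.132 FPKM in naive libraries. Hist1h1t, the testis linker histone, stayed at or below 0.0639 FPKM in every library, and so did Hist1h2aa, a testis H2A gene. In all, 18 members did not enter the filtered fit, with highest values between 0.00111 FPKM for Hist2h3c1 and 1.87 FPKM for Hist1h1d.

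Between the primed groups the differences were smaller. In the fit without a filter 0 of 67 members were higher and 3 lower in MLN-primed against spleen-primed cells, where 6.68% of all genes were higher and 4.29% lower. The 3 were Hist1h2bc, Hist3h2a and Hist3h2ba. In the filtered fit 0 of 49 were higher and 6 lower, where 17.3% and 13.1% of all genes were, so the share of lower members was close to that of all genes. No member was higher in every MLN-primed library than in every spleen-primed one, where 13.7% of all genes were, and 13 were lower, where 10.3% were. The median log2 difference of the tested members was -0.23, where that of all genes was 0.03, and 43 of the 49 values were below 0.

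Hist1h2bc differed most, by -1.0 ± 0.16 on the log2 scale (limma adjusted p = 0.00157), with all 3 MLN-primed libraries below all 3 spleen-primed ones. Hist3h2a differed by -0.46 ± 0.10 and Hist3h2ba by -0.43 ± 0.09 (limma adjusted p = 0.00609 and 0.00667), and their groups did not overlap either. Hist1h2bg (gene ID 319181, chr13:23571400-23571863, plus strand), the H2B partner of Hist1h2ae, had 1.73, 1.70 and 1.42 FPKM in MLN-primed and 3.33, 2.89 and 2.20 FPKM in spleen-primed libraries, against 0.303, 0.655 and 0.318 FPKM in naive libraries. Its difference between the primed groups was -0.53 ± 0.13 (limma adjusted p = 0.0137), with no overlap of libraries. Hist2h2aa1 differed by -0.46 ± 0.13 and the H2B gene Hist1h2bb by -0.38 ± 0.11 (limma adjusted p = 0.0223 and 0.0228). Without a filter, Hist1h2bg, Hist2h2aa1 and Hist1h2bb had adjusted p = 0.0676, 0.0860 and 0.0737 in limma. Hist1h4i, the most abundant member, differed by -0.04 ± 0.16 (limma adjusted p = 0.879).

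**Figure D4:**
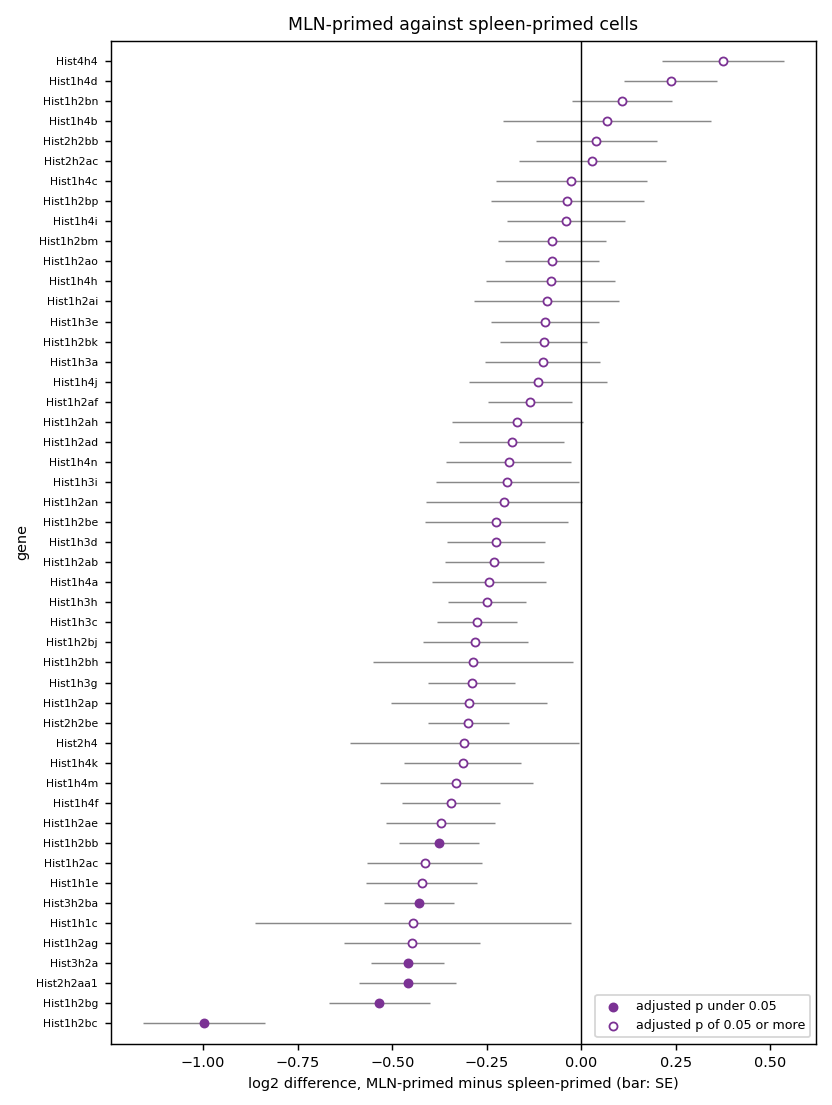
The log2 difference of MLN-primed minus spleen-primed cells for 49 tested histone cluster genes, in order of size, with the standard error as a bar and filled points at an adjusted p under 0.05. The 6 filled points lie left of 0, Hist1h2bc farthest, and 43 of 49 points lie left of 0.

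Single libraries moved this comparison. Among the tested members, spleen-primed 3 was the lowest of its group for 40 of 49, and spleen-primed 2 and MLN-primed 1 were the highest of their groups for 30 of 49 each. The primed libraries also differed in a trend with transcript length over 9689 genes. Its slope per doubling of length, against the group mean on the log2(FPKM + 1) scale, was 0.08 in spleen-primed 3. It was -0.05 and -0.03 in spleen-primed 1 and 2, -0.09 in MLN-primed 1, and 0.06 and 0.03 in MLN-primed 2 and 3. Each slope is taken against a group mean that holds the library itself, so the slopes within a group offset each other. Histone mRNAs are short, so 249 other genes under 800 bases were set beside them. Lengths here and in the removal of the length trend were those of the longest annotated transcript. The members were not cut at 800 bases, and some have longer models, as with 2146 bases in Hist3h2a and 2863 in Hist4h4. The members and the short genes are thus not matched in length. The median deviation from the group was -0.21 for the members and -0.11 for those short genes in spleen-primed 3, 0.14 and 0.04 in spleen-primed 2, and 0.11 for both in MLN-primed 1. Without spleen-primed 3 the count of lower members was 13 of 49, without MLN-primed 1 it was 10, and without spleen-primed 2 it was 3. Of all 10185 genes 1141, 1174 and 884 were lower in these fits. Without spleen-primed 3 and MLN-primed 1 together 23 of 49 members were lower and none higher, where 1375 of 10185 genes were lower and 2517 higher. Spleen-primed 3 was mostly the lowest and MLN-primed 1 mostly the highest of its group, so omitting both lowers most members' differences by construction. The libraries left had negative length slopes in spleen-primed and positive ones in MLN-primed cells. Leaving out the same 2 libraries in the fit without a filter gave 5 of 67 lower, where 807 of 23936 genes were lower. There Hist3h2a and Hist3h2ba did not pass (limma adjusted p = 0.0760 and 0.0935). Against naive cells 47.8% of the short genes were higher in MLN-primed and 48.2% in spleen-primed cells, with medians of 0.30 and 0.36 on the log2 scale, below those of the members.

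Genes of the histone supply chain and of the cell cycle were set beside the members, from lists drawn up with earlier results of these data known. Of 26 tested S phase genes 26 rose in both primed groups against naive cells. Their median log2 differences were 3.75 in MLN-primed and 3.26 in spleen-primed cells, beside 1.06 and 1.23 for the 49 tested members. This scale understates the change of low genes such as most members. With 0.1 in place of 1 added to FPKM the members' medians were 2.52 and 2.78. The S phase medians were not taken on that scale, so the size of the gap is uncertain. Thymidine kinase Tk1 averaged 154 ± 11.5 FPKM in MLN-primed, 131 ± 5.34 in spleen-primed and 0.741 ± 0.130 in naive cells, and its log2 difference was 6.48 ± 0.08 in MLN-primed and 6.25 ± 0.08 in spleen-primed cells. The ribonucleotide reductase subunit Rrm2 differed by 6.79 ± 0.11 and 6.55 ± 0.11 in MLN-primed and spleen-primed cells. All 14 mitosis genes rose in both, with medians of 5.63 and 5.59, among them the cyclin Ccnb1 and the kinase Aurkb. Between the primed groups 13 of 26 S phase genes and 1 of 14 mitosis genes were higher in MLN-primed cells and none was lower, among them cyclin E1 (Ccne1) by 0.69 ± 0.08 (limma adjusted p = 2.67e-04), while 0 of 49 members were higher. Of all genes tested, 17.3% were higher and 13.1% lower in that comparison.

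Of 18 tested genes for histone mRNA processing 12 rose and 1 fell in MLN-primed, and 13 rose and 1 fell in spleen-primed against naive cells, beside the shares of all genes given above. Slbp, the stem-loop binding protein, averaged 177 ± 7.30 FPKM in MLN-primed, 156 ± 11.8 in spleen-primed and 28.4 ± 5.21 in naive cells, a log2 difference of 2.61 ± 0.11 in MLN-primed and 2.42 ± 0.11 in spleen-primed cells. The cleavage factor gene Cpsf2 rose by 1.54 ± 0.08 and 1.23 ± 0.08 in the same comparisons. Zcchc6, which adds uridines to RNA ends, fell, with -0.89 ± 0.23 and -0.87 ± 0.23. Npat, the coactivator of histone gene transcription, averaged 5.17 ± 0.593 FPKM in MLN-primed, 5.31 ± 0.275 in spleen-primed and 4.09 ± 0.607 in naive cells, with log2 differences of 0.28 ± 0.11 and 0.32 ± 0.11 (limma adjusted p = 0.0397 and 0.0252).

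Of 21 tested histone chaperones and carriers 17 rose and 2 fell in MLN-primed, and 14 rose and 3 fell in spleen-primed against naive cells, beside the shares of all genes given above. Asf1b, which carries H3-H4 dimers, differed by 4.73 ± 0.08 in MLN-primed and 4.84 ± 0.08 in spleen-primed cells. Daxx, a chaperone of the variant H3.3, fell, with -0.67 ± 0.08 and -0.62 ± 0.08. Between the primed groups 8 of the 21 were higher in MLN-primed cells and none lower, where 17.3% and 13.1% of all genes tested were. The importin Ipo4 at 1.2 ± 0.08 and the H2A-H2B carrier Nap1l1 at 0.69 ± 0.06 led (limma adjusted p = 2.15e-05 and 7.91e-05). Against naive cells Ipo4 differed by 0.59 ± 0.08 in MLN-primed and -0.61 ± 0.08 in spleen-primed cells (limma adjusted p = 9.93e-05 and 9.3e-05).

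**Figure D5:**
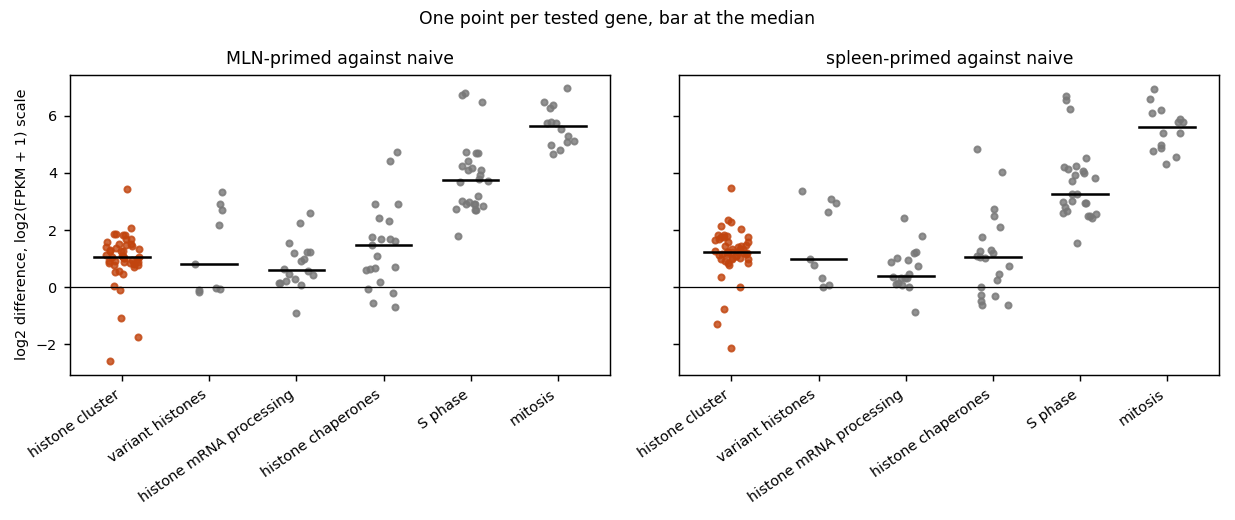
Log2 differences of single tested genes in MLN-primed (left) and spleen-primed cells (right) against naive cells, 1 point per gene with a bar at each list's median, on the log2(FPKM + 1) scale. Histone cluster genes (orange) have medians of 1.06 and 1.23, S phase genes 3.75 and 3.26, and mitosis genes 5.63 and 5.59. The scale understates the change of low genes, and with 0.1 in place of 1 added the histone cluster medians were 2.52 and 2.78.

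Variant histones are encoded outside these clusters, in most cases by genes whose mRNA is polyadenylated and made outside S phase as well. The share of RNA with a tail was not measured for them either, H2afx included. Their levels per length spread widely. H2afz averaged 1310 ± 174 FPKM in MLN-primed, 1356 ± 152 in spleen-primed and 174 ± 8.31 in naive cells, while H2afy2 was at most 0.112 FPKM in any library. Of 9 tested variant genes 5 rose in MLN-primed and 7 in spleen-primed against naive cells, where 45.5% and 43.1% of all genes tested rose, and none fell. The centromere variant Cenpa rose by 3.34 ± 0.11 in MLN-primed and 3.36 ± 0.11 in spleen-primed cells. H2afx, the H2A variant phosphorylated at DNA breaks, averaged 118 ± 5.79 FPKM in MLN-primed, 225 ± 14.1 in spleen-primed and 25.4 ± 0.527 in naive cells. In MLN-primed against spleen-primed cells 3 variant genes were lower and none higher, where 13.1% and 17.3% of all genes tested were. The 3 were H2afv at -1.01 ± 0.08, H2afx at -0.93 ± 0.07 and H2afj at -0.42 ± 0.10 (limma adjusted p = 3.40e-05, 2.48e-05 and 0.0118). H3f3a, for the replication-independent H3.3, passed in no comparison (limma adjusted p = 0.0868 to 0.875). H3f3b, also an H3.3 gene, rose by 0.81 ± 0.09 in MLN-primed and 0.78 ± 0.09 in spleen-primed against naive cells (limma adjusted p = 1.18e-05 and 1.8e-05).

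A list of other RNA taken to lack a poly(A) tail was set beside the members, and whether each, such as Malat1 and Neat1, lacks it in these cells was not tested. Of 15 such genes with values, 5 were at 0 in every library, and the 15 summed to 18.8 to 35.3 FPKM in MLN-primed, 14.3 to 19.5 in spleen-primed and 20.7 to 73.4 in naive libraries. The highest naive sum came from naive 1, where Rnu11, a spliceosomal small nuclear RNA, was listed at 51.4 FPKM and at 0 in the other 8 libraries. Of the 5 tested, the RNase P RNA Rpph1 rose in both primed groups, by 1.36 ± 0.21 in MLN-primed and 0.73 ± 0.21 in spleen-primed cells (limma adjusted p = 1.42e-04 and 0.00862). Malat1, a nuclear RNA with a triple-helical end, fell, with -1.24 ± 0.28 and -1.52 ± 0.28 (limma adjusted p = 0.00249 and 7.33e-04). The RNA component of RNase MRP, Rmrp, fell in spleen-primed cells, with -0.99 ± 0.40 (limma adjusted p = 0.0442). The summed level of these RNAs overlapped between MLN-primed and naive libraries and was lower in every spleen-primed library than in any naive one. That order rests in part on Malat1 and Neat1, at 6.47 and 5.93 FPKM in naive 3, which had the lowest naive sum. The part of these RNAs in the results was not tested.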

How the data were processed

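Per the labels' protocols, the RNeasy Plus Micro kit was used for RNA and the TruSeq Stranded mRNA kit for libraries. The authors deposited FPKM per gene for 9 libraries in 3 groups of 3, for which the submitters' processing notes name TopHat, Cufflinks and mm10. The sources used here give no versions, filters or use of strand. A second table, named for transcripts, was identical and was not used. Of 24067 entries 131 without a symbol, with 0.0479% of all FPKM, were left out.

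Values were used as log2(FPKM + 1). Genes that reached 1 FPKM in 3 or more libraries were fitted with limma 3.58.1 (trend; R 4.3.3) over all 9 libraries, with two-sided tests of 3 contrasts and Benjamini-Hochberg adjustment over all genes tested, at 0.05. A second fit without a filter keeps all members. The fit was tested on simulated data. Figures used Python 3.11.15, pandas 2.3.3, numpy 2.4.6 and matplotlib 3.10.9. No counting error can be given, since FPKM do not keep depth.

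Members, lists and tests were chosen with earlier results of these data known. Genes named with all values are the 2 most abundant tested members per histone class and up to 5 with the largest difference in each direction and comparison, with Hist2h4, Hist2h2ac, Hist1h2bb, Hist2h2aa2 and members outside the filtered fit named after their values were seen. Of the other lists, genes are named from the 2 with the smallest p per direction and comparison, and Npat, H2afz, H2afj, H2afy2, H3f3a, H3f3b and Rnu11 after their values were seen. The alternatives were other pseudocounts, filters, scalings and variance models, a replicate block and omitted libraries. Removal of a loess trend with transcript length (GENCODE M21, span 0.5) and the fit that both drops the filter and omits spleen-primed 3 and MLN-primed 1 were chosen after the data were examined.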

Additional observations from a re-analysis of the deposited data

How the results depend on the processing

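Against naive cells 35 to 45 members were higher and 3 or 4 lower under the alternatives that tested 49, and 46 to 53 were higher and 3 lower under those that tested 67. The other alternative was a filter of 5 FPKM in 3 libraries, which leaves 5 members, of which 3 were higher and 2 lower in MLN-primed and likewise 3 and 2 in spleen-primed against naive cells. MLN-primed against spleen-primed counts depended more on the libraries and the filter. The count of lower members was 6 of 49 as reported, 3 of 67 without a filter, 12 with the length trend removed, 23 without spleen-primed 3 and MLN-primed 1, 5 of 67 without both these libraries and the filter, and 3 to 13 over fits that leave out 1 library each. Of all 10185 genes 1629 were lower with the length trend removed and 1375 without spleen-primed 3 and MLN-primed 1. Over fits that leave out 1 library each 884 to 1389 were lower. Without both these libraries and the filter 807 of 23936 were lower. In the fit without both libraries and the filter, Hist1h2bc kept its call and the other 5 did not. The count of higher members was 0 to 1 over those fits, the 1 being Hist1h4d without spleen-primed 1. The difference of Hist1h2bc in MLN-primed against naive cells was reversed, at -0.0447, with the length trend removed. The cause was not tested.

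Libraries with the same number were not shown to be paired, since the correlation of their deviations from the group means ran from -0.24 to 0.64 over genes. With the replicate number as a block, 44 members were higher and 3 lower in MLN-primed against naive cells, 44 and 3 in spleen-primed against naive cells, and 0 and 6 in MLN-primed against spleen-primed cells. The gained call was Hist2h4 in MLN-primed cells.

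The limits are 3 libraries a group, unknown depth, a poly(A) selection applied to genes whose mRNA usually has no tail, and near-identical genes. The share of histone mRNA that passed this selection was not measured. Of the members 28 share over 50% of their 50-base windows with another member, and how the authors' tools divided such reads is not given in the labels.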
